A study of Mus musculus with 5 samples.

Results

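Asz1, Dnajc5g, Nxf3, Tex101, Tdrd1 and Brdt are mouse genes of the germline, read mainly in testis or in developing germ cells and kept silent in most other tissues. They were taken by symbol from a table of read counts per exon bin, with 94 bins among them, and are 6 of the 10855 gene symbols in that table. The choice was made with their difference between the groups already known, so the values of that difference are given as a description, without a test. Polyadenylated RNA came from mouse embryonic stem cells, which are grown from the early embryo and can form all its tissues. Libraries wildtype 1 to 3 carry the genotype label wildtype, and libraries deleted 1 and 2 come from cells lacking the −45 super-enhancer, a dense cluster of enhancers that takes its number from its distance in kilobases to Nanog, a gene of the stem cell state. For all 5 libraries the treatment is labelled as ethanol vehicle or 4-hydroxytamoxifen for 6 days, without saying which library had which agent. The labels name no strain or clone and do not say whether libraries of a group came from separate cultures, so the p-values rest on differences among these 5 libraries alone, and their spread may be technical.

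Germline genes of this kind often have promoters rich in CpG dinucleotides, which gain DNA methylation as the embryo implants and stay methylated in somatic cells. A repressive complex with E2F6, MGA and MAX, called PRC1.6, sits at many of them in embryonic stem cells, where E2F6 and the MGA-MAX pair bind short DNA motifs. Asz1 and Tdrd1 belong to the piRNA pathway, in which PIWI proteins loaded with small RNAs silence transposons in germ cells. Asz1 anchors this machinery on the mitochondrial surface, and Tdrd1 is a Tudor-domain scaffold that binds methylated arginines of PIWI proteins. Brdt is the testis member of the BET family of readers of acetylated histones, and works in meiosis and spermatid chromatin. Tex101 is a GPI-anchored surface protein of germ cells that sperm need to reach the oviduct. Nxf3 is an X-linked member of the nuclear RNA export factor family, and Dnajc5g encodes a cysteine string protein, a DNAJ co-chaperone.

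RefSeq (build GRCm38.p6, which differs from the mm9 build of the counts) gave promoter windows, from 250 bases before to 50 after the start, for 5 of the members, Nxf3 being the other one. The bases before the start are shown for Asz1 and Dnajc5g, which were far higher in the deleted cells, and for Tdrd1 (the first of its 3 starts) and Brdt, which were slightly lower. Each is written 5′ to 3′ on the strand of its gene, and capitals mark CpG dinucleotides, the sites of DNA methylation. In the order printed they lie at chr6:18109062-18109311 (minus strand), chr5:31108069-31108318, chr19:56825959-56826208 and chr5:107330944-107331193 (plus strand).
Asz1: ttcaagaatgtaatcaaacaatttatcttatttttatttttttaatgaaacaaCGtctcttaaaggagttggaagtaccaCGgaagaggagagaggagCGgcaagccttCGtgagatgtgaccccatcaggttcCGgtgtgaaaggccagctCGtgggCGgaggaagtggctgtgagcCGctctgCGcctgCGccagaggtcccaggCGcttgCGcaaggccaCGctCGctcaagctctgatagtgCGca
Dnajc5g: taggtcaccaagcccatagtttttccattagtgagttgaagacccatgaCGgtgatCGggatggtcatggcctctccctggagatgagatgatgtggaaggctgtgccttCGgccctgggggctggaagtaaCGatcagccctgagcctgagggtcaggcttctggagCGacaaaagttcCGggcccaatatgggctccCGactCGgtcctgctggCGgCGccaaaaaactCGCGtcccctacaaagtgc
Tdrd1: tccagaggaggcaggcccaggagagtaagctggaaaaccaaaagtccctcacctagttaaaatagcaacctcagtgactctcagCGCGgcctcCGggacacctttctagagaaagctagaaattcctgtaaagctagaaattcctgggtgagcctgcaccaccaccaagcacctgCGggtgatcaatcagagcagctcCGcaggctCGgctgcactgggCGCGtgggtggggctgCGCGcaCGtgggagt
Brdt: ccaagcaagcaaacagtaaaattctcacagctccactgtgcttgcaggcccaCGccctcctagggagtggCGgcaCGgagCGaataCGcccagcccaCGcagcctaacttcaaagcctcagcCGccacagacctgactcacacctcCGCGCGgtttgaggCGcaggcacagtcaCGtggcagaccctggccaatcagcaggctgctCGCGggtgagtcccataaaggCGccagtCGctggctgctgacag

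All 5 members with a window had a CpG-rich one at their first start. The observed over expected CpG ratio was 0.78 for Asz1, 0.63 for Dnajc5g, 0.70 for Tex101, 0.73 for Tdrd1 and 0.74 for Brdt, against a median of 0.38 over the 32851 windows in the table. Of all windows, 66.2% had a lower ratio than that of Dnajc5g and 77.7% a lower ratio than that of Asz1, the lowest and highest of the members. The members' windows at the first start held 15 to 23 CpG, against a median of 7. The motif CACGTG, the E-box that MGA and MAX bind, lay in the windows of Brdt and of the first and second Tdrd1 starts, not the third, and in none of the windows of Asz1, Dnajc5g and Tex101. Of all windows, 7.15% held it. It began 11 bases before the first Tdrd1 start and 78 bases before that of Brdt. The E2F6 core TCCCGC, searched on both strands as TCCCGC or GCGGGA, was in none of the member windows and in 20.0% of all windows. The E-box reads the same on both strands and overlaps neither form of the core.

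Library totals of bin counts ran from 93574214 to 213042064, so 3 counts made up 0.0141 to 0.0321 CPM of these totals. Levels below are CPM with library sizes also scaled by TMM factors. A read over more than 1 bin can count in each of them, and intervals cover counting error at most. All members lay below the median of 10.97 CPM over all tested genes in both groups, and tested symbols had a median of 0.446 CPM, since most abundant genes stand under assembly IDs without a symbol. Wildtype 3 was the deepest library. None of the 16 stem cell markers and none of the 10 primordial germ cell markers listed had a row under its symbol, so neither cell type was checked here. Of 28 spermatid genes with rows, 7 had 0 counts in every library, among them Prm2 and Tnp1, which pack sperm chromatin, and 5 were tested.

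Asz1, Dnajc5g and Nxf3 were much higher in the deleted cells, Tex101 was modestly higher, and Tdrd1 and Brdt were modestly lower. In each of the 6 members the groups did not overlap. Of all 16259 tested genes, 39.7% passed an edgeR adjusted p of 0.05, 20.0% higher and 19.7% lower in the deleted cells. Both deleted libraries lay above all wildtype libraries in 32.8% of tested symbols and below them in 24.2%, and nothing is read from the members' count, because this difference chose them. In bulk RNA, fewer cells that express a gene and less RNA per cell cannot be told apart.

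Dnajc5g had 1, 0 and 1 counts in wildtype 1, 2 and 3, while deleted 1 and 2 held 151 and 134 counts. It was nearly silent in every wildtype library and present in both deleted ones, at 1.62 and 1.35 CPM. Summed over libraries, 285 counts against 2 gave a ratio of 337 per count sequenced. Its 95% exact binomial interval, 92.4 to 2795, treats bin counts as separate reads, so it can be too narrow even for counting error. The interval is no test, because this difference chose the gene. Dnajc5g met the low-count filter through the deleted libraries alone. It shares no exon base with Slc30a3, the annotated gene on the opposite strand whose span overlaps its own.

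Asz1 stood at 0.153, 0.236 and 0.176 CPM in the wildtype libraries and at 1.57 and 1.5 CPM in the deleted ones. The lowest deleted library was thus far above the highest wildtype one, and the libraries within each group lay close together. The means were 0.188 ± 0.0431 CPM (SD, n = 3) and 1.53 ± 0.0428 CPM (SD, n = 2), a fitted log2 fold change of 3.04 ± 0.19 (SE), or 8.22-fold. Unlike Dnajc5g, Asz1 had counts in every wildtype library (19, 27 and 38).

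Nxf3 stood at 0.474, 0.350 and 0.458 CPM in wildtype 1, 2 and 3, and at 3.03 and 2.83 CPM in deleted 1 and 2. Its separation was of the same order as that of Asz1, from a higher starting level. The fitted log2 fold change was 2.76 ± 0.15 (SE), or 6.77-fold. By log2 fold change, Asz1 was 24th and Nxf3 30th from the top of 3591 tested symbols, whose median was 0.07.

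Tex101 stood at 0.354, 0.376 and 0.463 CPM in the wildtype libraries and at 0.718 and 0.616 CPM in the deleted ones. The groups were apart, but by less than in the 3 genes above, and the log2 fold change was 0.72 ± 0.20 (SE). Tdrd1 read 4.23, 3.95 and 4.66 CPM in the wildtype libraries, then 3.10 and 3.45 CPM in the deleted ones, a log2 fold change of −0.39 ± 0.11 (SE). Brdt had 1.07, 1.14 and 1.28 CPM against 0.847 and 0.858 CPM, a log2 fold change of −0.45 ± 0.15 (SE). Tdrd1 and Brdt were thus read at clear levels in wildtype cells already, and their differences are small beside those of Asz1 and Nxf3.

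**Figure D1:**
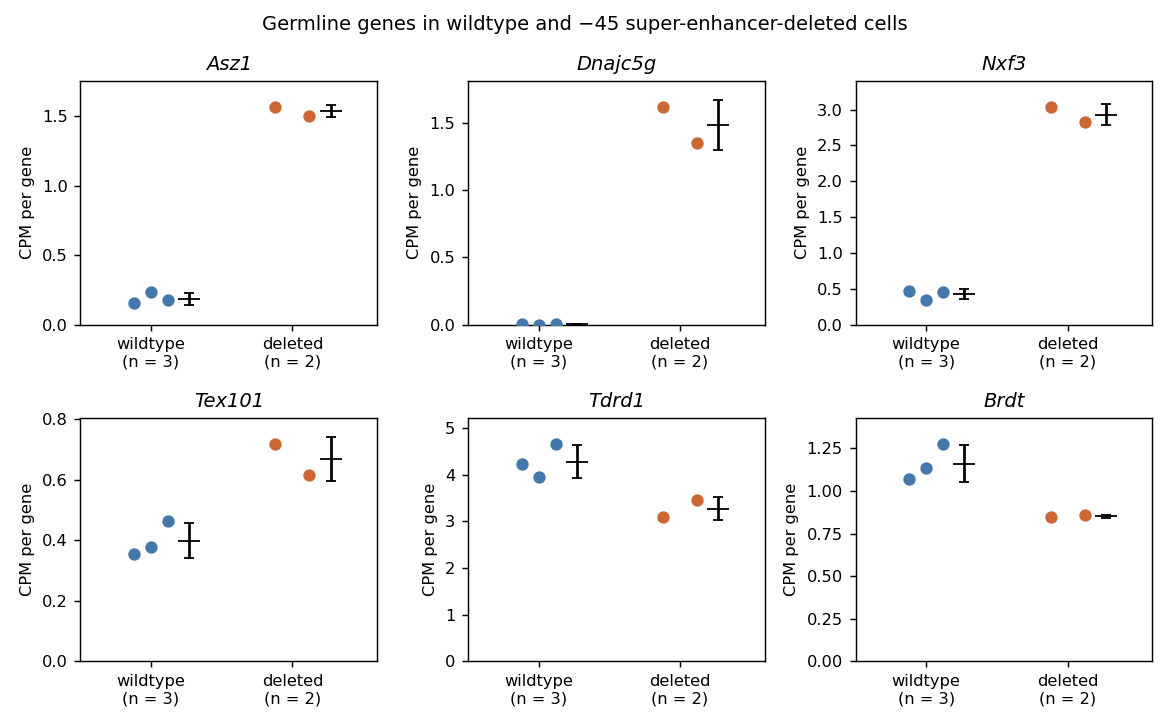
Level of each of the 6 germline genes in CPM (y axis, from 0, a scale of its own per panel) in the 3 wildtype and 2 deleted libraries. Points are libraries, and bars beside them show the mean ± SD. Dnajc5g lies at or near 0 in wildtype and at 1.35 to 1.62 CPM in deleted libraries, while Tdrd1 and Brdt sit slightly lower in the deleted ones.

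Per kilobase of annotated transcript, the order of the members differed between the groups. In wildtype cells, Tdrd1 was first at 0.825 CPM per kilobase (0.763 to 0.898 over libraries), followed by Tex101 at 0.375 and Brdt at 0.245. Nxf3 and Asz1 came next at 0.144 (0.118 to 0.159) and 0.109 (0.0880 to 0.136) CPM per kilobase, and their ranges overlapped. Dnajc5g was last at 0.00270 CPM per kilobase. In deleted cells, Nxf3, Dnajc5g and Asz1 led at 0.984, 0.949 and 0.884 CPM per kilobase, and the range of Dnajc5g (0.864 to 1.03) took in those of the other two. Tdrd1 and Tex101 followed at 0.631 and 0.630 CPM per kilobase with overlapping ranges, and Brdt was last at 0.180. The order is one of levels over 3 and 2 libraries, with lengths from GENCODE vM21, whose transcripts may not be those the authors counted on.

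The table numbers bins without coordinates. Among tested genes with 1 annotated transcript of as many exons as bins, bin counts followed exon lengths better in ascending genome order than in reverse for 90.3% of 525 minus-strand genes and 89.6% of 490 plus-strand genes. Bin 1 was therefore read as the 3′ end of Asz1, Nxf3 and Tex101 and as the 5′ end of Dnajc5g, Tdrd1 and Brdt. The 13 bins of Asz1, 6 of Dnajc5g, 19 of Nxf3 and 6 of Tex101 each matched 1 annotated transcript in number of exons.

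The differences of the leading 3 genes ran over their whole length. Both deleted libraries lay above all wildtype libraries in 13 of 13 Asz1 bins, 6 of 6 Dnajc5g bins and 19 of 19 Nxf3 bins. Of all bins of tested symbols with at least 10 counts, 20.8% lay so, and bins of 1 gene share reads and are no replicates. The bin of the first Asz1 exon had 0, 0 and 8 counts in wildtype 1, 2 and 3, and 17 and 17 counts in deleted 1 and 2. Of the Asz1 counts, the 6 bins nearest the start held 47.4%, 14.8% and 44.7% in the wildtype libraries and 52.7% and 55.0% in the deleted ones. Wildtype 2 stood apart there, with 4 of its 27 counts in those bins. The last Dnajc5g exon was its most counted bin, with 56 and 62 counts in the deleted libraries against 0, 0 and 1 in wildtype. In Nxf3 the most counted bin was the last exon, at 58 and 83 counts in the deleted libraries against 9, 13 and 20.

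The smaller differences were less even along the genes. Of 6 Tex101 bins, 2 had the deleted libraries above all wildtype ones and 4 overlapped. Of 26 Tdrd1 bins with at least 10 counts, 10 had the deleted libraries below and 16 overlapped, and of 18 such Brdt bins, 4 lay below and 14 overlapped. The background for lying below was 16.4% of bins. Leaving out 1 library can only keep or raise the number of bins in which the groups are apart. That all bins of Asz1, Dnajc5g and Nxf3 stayed apart was therefore fixed in advance. For Tex101 it gave 3 to 5 bins above (5 without deleted 2). Bins below numbered 10 to 19 for Tdrd1 (19 without deleted 2) and 5 to 10 for Brdt (10 without deleted 1). The share over all bins was not computed for these smaller sets of libraries, so nothing is read from these counts. The deleted libraries did not match each other over Tdrd1. Its first 15 bins held 31.5% of counts in deleted 1 and 45.9% in deleted 2, against 32.5% to 33.3% in the wildtype libraries.

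**Figure D2:**
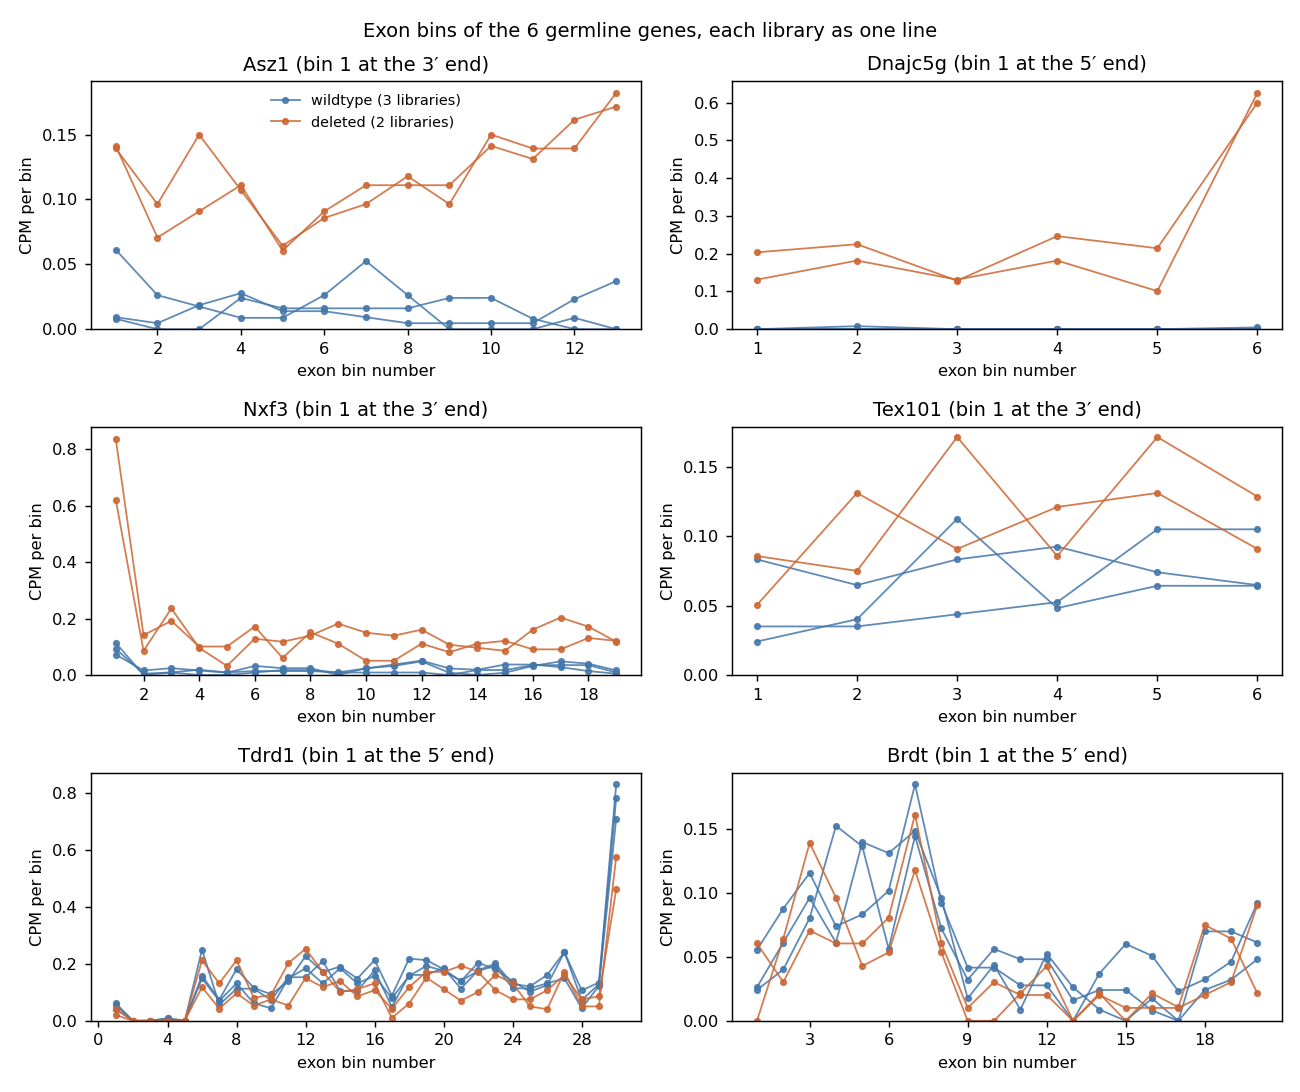
CPM per exon bin (y axis, from 0) along the bins of each gene (x axis), with 1 line for each library, wildtype in blue and deleted in orange. The lines of the groups separate at every bin of Asz1, Dnajc5g and Nxf3 and cross in Tex101, Tdrd1 and Brdt.

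Tdrd1 has several annotated starts, and the few counts in the bins matched to them lay mostly in bin 1. Its GENCODE exons divide into 30 pieces, as many as its bins. By that match, bin 1 would correspond to the first start and bins 2 to 5 to the later ones. Bin 1 held a mean of 1.23% of Tdrd1 counts in wildtype and 0.984% in deleted libraries, so most counts do not bear on the start. Bin 1 had 5, 7 and 12 counts in the wildtype libraries, and the deleted libraries had 4 and 2. In bins 2 to 5 there was 1 count in wildtype 1 and 1 in wildtype 2, both in bin 4, and none in the other libraries. The sequence printed above for Tdrd1, with its E-box, is the one before that first start. This match is by number of pieces only, which agreed for 662 of 3469 tested symbols and for none of the other members.

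Brdt was read mostly over its first bins in both groups, a pattern seen only once the counts were laid out. The 19 exons of its long annotated transcript, plus the longer end of the last exon of a 7-exon transcript, make 20 pieces, as many as its bins. All GENCODE exons of Brdt divide into 27 pieces, so this match rests on a choice among its 4 annotated transcripts. By that choice, bins 1 to 8 would cover the short form, and bins 9 to 20 the exons of the long form alone. Bins 1 to 8 held 66.2%, 66.9% and 62.3% of Brdt counts in the wildtype libraries, and 67.1% and 68.2% in the deleted ones. Per kilobase, they held 3.50 to 4.29 times the counts of bins 9 to 20 in the wildtype libraries and 4.32 and 4.55 times in the deleted ones. Bin 8, by that match the piece beyond the shared exon, had 28.6 to 63.5 raw counts per kilobase in wildtype. In the deleted libraries it had 15.9 and 19.05. These are not scaled for library depth and compare bins within a library only. In each library the value of bin 8 was below that of bins 1 to 7 and above that of bins 9 to 20. The shares of bins 1 to 8 were close to each other in all 5 libraries, so both groups had this uneven coverage.

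Genes of the lists below were not chosen for their values here, though the lists were written with other results of these data known. Those results had set apart Tet3 as lowered and the Rhox cluster as a group, so the calls of Tet3 and Rhox2a are no independent result. The 9 lists cover germline genes, family members, and silencers or other enzymes acting on DNA methylation. Of their 41 tested genes, 7 (17.1%) were higher and 1 (2.44%) lower at an edgeR adjusted p under 0.05. One of the higher genes, Rhox2a, was tested only through the deleted libraries. Of all tested symbols, 19.0% were higher and 13.1% lower. The list genes had a median log2 fold change of 0.18, beside 0.07 for all tested symbols. Many listed genes had no row under a symbol and are not analysed here.

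In the piRNA pathway, 6 of 32 listed genes had symbol rows and all 6 were tested. Piwil1, the PIWI protein of meiotic and round spermatid stages, rose by 0.83 ± 0.17 on the log2 scale (SE; edgeR adjusted p = 0.00492), with group means of 0.872 ± 0.148 CPM in wildtype and 1.58 ± 0.198 CPM in deleted libraries (SD). The other 5 did not pass. Piwil4, the nuclear PIWI protein of fetal male germ cells, had 0.29 ± 0.16 (edgeR adjusted p = 0.189), and Tdrd9, a Tudor-domain helicase, 0.43 ± 0.22 (edgeR adjusted p = 0.164). Kif17, a kinesin reported in germ cell granules, had 0.85 ± 0.41 (edgeR adjusted p = 0.131, and 0.0433 without wildtype 3). The list's median log2 fold change was 0.48, and Piwil1 lost its call without deleted 2 (edgeR adjusted p = 0.0718) and in its most counted bin alone (edgeR adjusted p = 0.195).

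Of 13 tested meiosis genes, 2 were higher and 11 did not pass, with a median log2 fold change of −0.18. Msh5, a meiotic crossover factor, had 1.02 ± 0.31 (edgeR adjusted p = 0.0287), and Tex12, a central element protein of the synaptonemal complex, 0.71 ± 0.23 (edgeR adjusted p = 0.0329). Each of these calls ended on leaving out deleted 1 or deleted 2, and also without wildtype 1 for Msh5 and without wildtype 2 for Tex12 (edgeR adjusted p up to 0.170 and 0.175). Ccdc79 and Ccdc36, meiotic chromosome proteins also named Terb1 and Iho1, had 0.64 ± 0.27 and −0.34 ± 0.14 and did not pass (edgeR adjusted p = 0.0885 and 0.0905), though Ccdc79 passed without deleted 1 (edgeR adjusted p = 0.034).

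Among germline genes known as targets of promoter DNA methylation, 2 of 6 tested were higher and none was lower. Tktl2, a transketolase-like gene read in testis, rose by 1.57 ± 0.17 on the log2 scale (SE; edgeR adjusted p = 0.000194), from a wildtype mean of 0.426 ± 0.0681 CPM to 1.28 ± 0.0489 CPM in deleted libraries (SD). Its call held on leaving out any 1 library (edgeR adjusted p up to 0.00543). Rhox2a, a homeobox gene of the X-linked reproductive cluster with near-identical copies, had 0.0327 ± 0.0154 CPM in wildtype and 0.187 ± 0.00680 CPM in deleted libraries (SD), and passed the filter through the deleted libraries alone. Sycp1, the transverse filament protein of the synaptonemal complex, had −0.64 ± 0.26 and did not pass (edgeR adjusted p = 0.106). It passed without wildtype 3, its highest library, at a smaller −0.35 ± 0.11 (edgeR adjusted p = 0.0145), without wildtype 2 (edgeR adjusted p = 0.0374) and with DESeq2 (adjusted p = 0.024). Dpep3, a testis dipeptidase, had 0.22 ± 0.25 (edgeR adjusted p = 0.535).

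Relatives and partners of Tex101 gave 2 higher genes of 4 tested. Ace, the angiotensin-converting enzyme, whose testis form acts in sperm, had 1.21 ± 0.34 (edgeR adjusted p = 0.0201), and Ly6c1, a GPI-anchored LY6 protein of blood cells and endothelium, 1.14 ± 0.29 (edgeR adjusted p = 0.0130). Ly6c1 was not called without deleted 2, and Ace without deleted 1 or deleted 2 (edgeR adjusted p up to 0.126 and 0.145). Ly6h and Lynx1, of the same family in brain, had 0.19 ± 0.16 and −0.16 ± 0.23 and did not pass (edgeR adjusted p = 0.393 and 0.621). The family members of Nxf3 with rows, the X-linked export factor genes Nxf2 and Nxf7, had 0.51 ± 0.23 and 0.24 ± 0.42 and did not pass (edgeR adjusted p = 0.113 and 0.690), with 0 genes of that list at an unadjusted p under 0.05 and 0 called by DESeq2. Their levels were 0.295 ± 0.0269 and 0.194 ± 0.103 CPM in wildtype (SD, n = 3) and 0.414 ± 0.0854 and 0.224 ± 0.0168 CPM in deleted libraries (SD, n = 2). Snap25, the synaptic fusion protein that cysteine string proteins protect, had −1.98 ± 0.79 (edgeR adjusted p = 0.0780), on 0.0991 CPM or less in each group mean. It passed without wildtype 1 (−2.32, edgeR adjusted p = 0.025), while DESeq2 called 0 genes of that list and 1 had an unadjusted p under 0.05 with edgeR.

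In the list of silencers of germline genes and other enzymes acting on DNA methylation, only Tet3 had a symbol row. Tet3 oxidizes methylated cytosine and is not itself a silencer. It was lower by a log2 value of −0.70 ± 0.14 (SE; edgeR adjusted p = 0.00420), at 3.04 ± 0.420 CPM in wildtype and 1.88 ± 0.0234 CPM in deleted libraries (SD). The DNA methyltransferases and the PRC1.6 subunits were not analysed here, and neither were the BET relatives of Brdt. None of 4 tested germ cell regulators (Zbtb16, Sohlh1, Tex19.2 and Gfra1) and none of 5 tested spermatid genes (Hspa1l, Zpbp, Gapdhs and Zpbp2 among them) passed with edgeR. In both lists 0 genes had an unadjusted p under 0.05 and 0 were called by DESeq2.

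**Figure D3:**
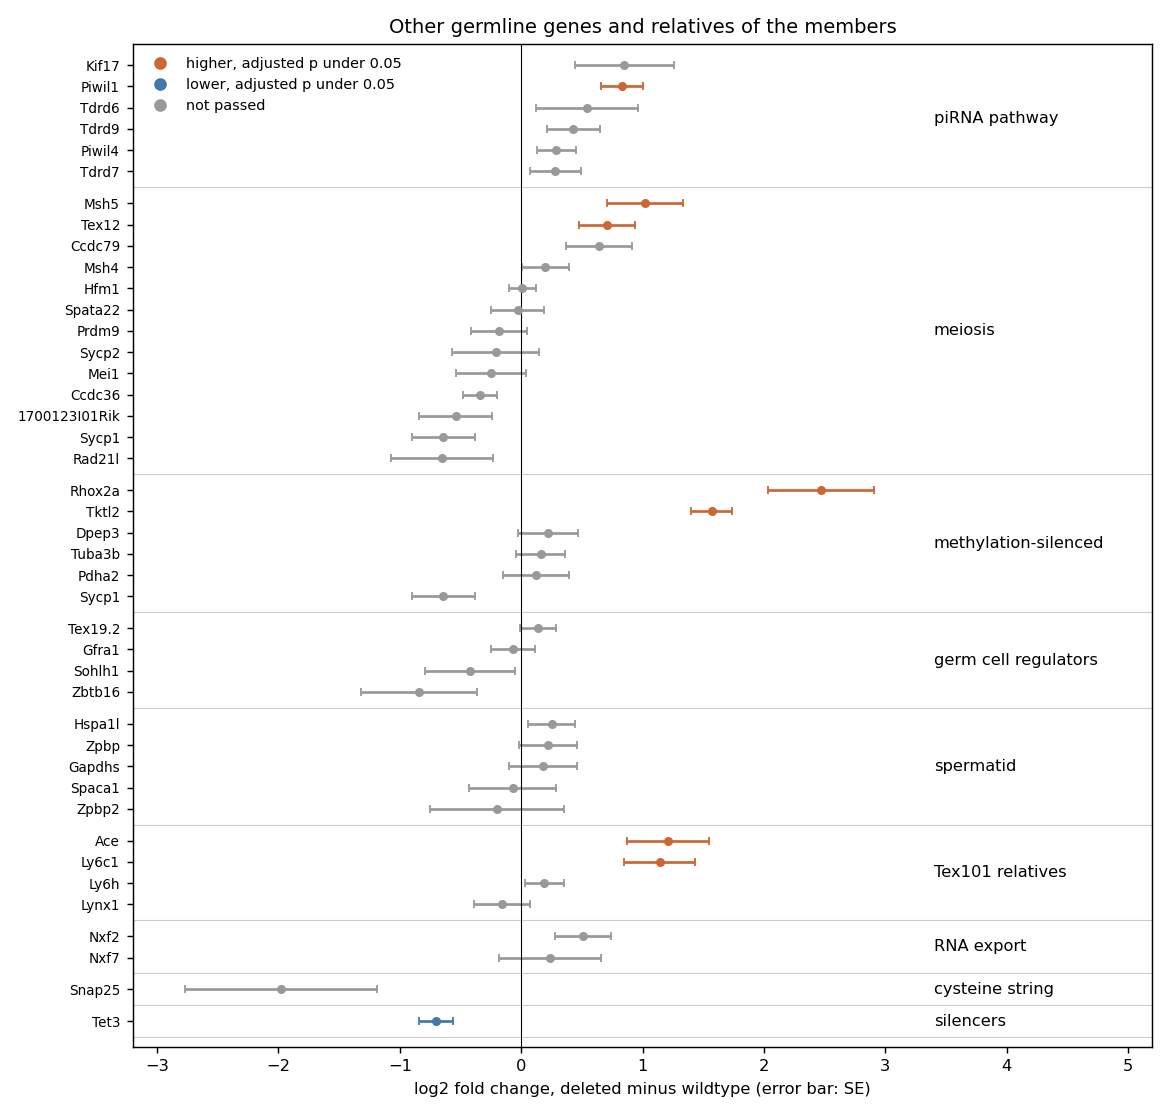
Log2 fold change, deleted minus wildtype, with its SE (x axis) for the tested genes of the lists, grouped by list. Colour gives the edgeR call at an adjusted p under 0.05. Of 41 genes, 7 are marked higher and 1, Tet3, lower. Sycp1 stands in both the meiosis and the methylation lists.

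Markers of other cells differed between the groups in part. Over all tested symbols, 19.0% were higher and 13.1% lower. The small share of stem cells that reads genes of the 2-cell embryo is called two-cell-like cells. All 11 of their tested markers were higher, 5 of them tested only through the deleted libraries. These gene groups had already been set apart in these data, so this count is a description. Most of the 11 are Zscan4 or Usp17l genes, which are similar copies and not separate observations. The markers' summed level over 17 rows was 2.97 to 3.26 CPM in wildtype and 17.2 to 17.6 CPM in deleted libraries, with Tcstv1 and Tcstv3 at 0 counts. Zfp352, Tdpoz1, Tdpoz2 and Tdpoz4 had rows but were not tested. Zscan4c, a marker of that state, had a log2 difference of 2.54 ± 0.10 (SE; edgeR adjusted p = 1.29e-06), at 1.62 ± 0.135 CPM in wildtype and 9.37 ± 0.0948 CPM in deleted libraries (SD). Fibroblast markers summed to 9.22 to 12.5 CPM in wildtype and 13.6 to 13.7 CPM in deleted libraries. Of 7 tested, 5 were higher, 1 of which (Col6a1) was tested only through the deleted libraries. Col1a1 and Fbn1 did not pass, and Col3a1, Dcn, Lum, Postn and Twist2 had rows but were not tested. Of 8 tested primitive endoderm markers, 3 were lower and 5 did not pass, Gata4 and Gata6 among them. Their summed levels were 7.89 to 9.08 CPM in wildtype and 5.11 to 6.44 CPM in deleted libraries. Of 4 tested Sertoli and Leydig markers, 1, Cyp11a1, was lower and 3 did not pass. Sums were 2.58 to 2.74 CPM in wildtype and 1.96 to 2.51 CPM in deleted libraries, with Hsd3b1 at 0 counts. The part of these cells in the values of Asz1, Dnajc5g, Nxf3 and Tex101 was not tested.

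The genes closest to a member in pattern were found by the root-mean-square difference of log2 CPM, centred over the 5 libraries, among 3262 tested symbols. For Asz1 these were Usp17lb, of the two-cell deubiquitinase family, Mgl2, a lectin gene of macrophages, and Rhox4b, of the reproductive homeobox cluster (differences of 0.16, 0.18 and 0.21). Usp17lb went from 0.100 to 0.941 CPM between the group means, while Mgl2 and Rhox4b were at 0.0190 and 0 CPM in wildtype. No gene was near Dnajc5g. Its closest were the melanoma antigen gene Magea5, C1qtnf9 and Magea8, at differences of 1.04, 1.14 and 1.39. For Nxf3 the first was Dcstamp, an osteoclast fusion gene, at 0.10, followed by the transporter gene Slc6a12 at 0.16 and the cadherin gene Cdh17 at 0.19. Tex101 was closest to Gabrr1 and Iqce (0.05 and 0.06), Tdrd1 to Mid1, Sos2 and Zkscan7 (0.02 to 0.04) and Brdt to Phactr1, Efnb1 and Cdsn (0.03 to 0.04). With 5 libraries in 2 groups, likeness of pattern is mostly likeness of the group difference. With a prior count of 0.5 in place of 2, 1 of the 3 names stayed for Asz1 and 2 of 3 for Dnajc5g.

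Around the members, the 3 nearest coding genes with a row on each side gave 36 genes. Coding genes without a row were passed over, so some of the 36 are not adjacent. Tcp11x2 is the 9th coding gene before Nxf3, and Emilin1 the 9th before Dnajc5g. Of the 36 genes, 21 were tested. Of these, 4 were higher, 1 of them (Plekhs1) tested only through the deleted libraries, and 3 were lower. Of tested symbols, 32.1% passed. The 3 tested neighbours of Asz1 on chromosome 6 all had positive values. St7 was higher by 0.82 ± 0.09 on the log2 scale (SE; edgeR adjusted p = 0.000249), at 2.72 ± 0.145 CPM in wildtype and 4.83 ± 0.0679 CPM in deleted libraries (SD). Cttnbp2, a cortactin-binding protein of neurons, rose by a log2 fold change of 1.6 ± 0.26 (edgeR adjusted p = 0.00156). Cftr, the chloride channel gene next to Asz1, had 1.03 ± 0.47 and did not pass (edgeR adjusted p = 0.114), at 0.0838 ± 0.0526 CPM in wildtype (SD, n = 3) and 0.192 ± 0.0287 CPM in deleted libraries (SD, n = 2). Only 1 wildtype library of Cftr was over the low-count filter, which it met through the deleted libraries; without wildtype 3 its value was 1.79 ± 0.48 (edgeR adjusted p = 0.00564). The values of these neighbours are all smaller than the 3.04 of Asz1.

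Next to Dnajc5g on chromosome 5, Slc30a3, a zinc transporter gene of synaptic vesicles, was higher at 0.75 ± 0.22 (edgeR adjusted p = 0.0224). Slc30a3 lost that call on leaving out wildtype 1 or either deleted library (edgeR adjusted p up to 0.151). Tcf23, Emilin1 and Trim54 on the same stretch had −0.69, −0.39 and 0.13 on the log2 scale and did not pass. Around Nxf3 on the X chromosome, Tcp11x2 was lower at −0.60 ± 0.18 (edgeR adjusted p = 0.0293, and up to 0.129 on leaving out wildtype 1 or either deleted library), and Prame, Nxf7 and Tceal5 did not pass. Near Tex101 on chromosome 7, Ceacam10 was lower at −1.28 ± 0.28 (edgeR adjusted p = 0.00633), opposite in sign to Tex101. Near Tdrd1 on chromosome 19, Plekhs1 stood at 0.0723, 0.0263 and 0.0555 CPM in wildtype and 0.214 and 0.323 CPM in deleted libraries, and met the low-count filter through the deleted libraries alone, while Adrb1, Vwa2, Afap1l2 and Gfra1 lay between −0.16 and 0.08 and did not pass. Beside Brdt on chromosome 5, Tgfbr3, a TGF-beta co-receptor gene, was lower at −0.95 ± 0.15 (edgeR adjusted p = 0.00118), and the meiotic helicase gene Hfm1 (0.01 ± 0.11) and Ephx4 (0.56 ± 0.22) did not pass, Ephx4 except without deleted 2 (edgeR adjusted p = 0.0361).

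**Figure D4:**
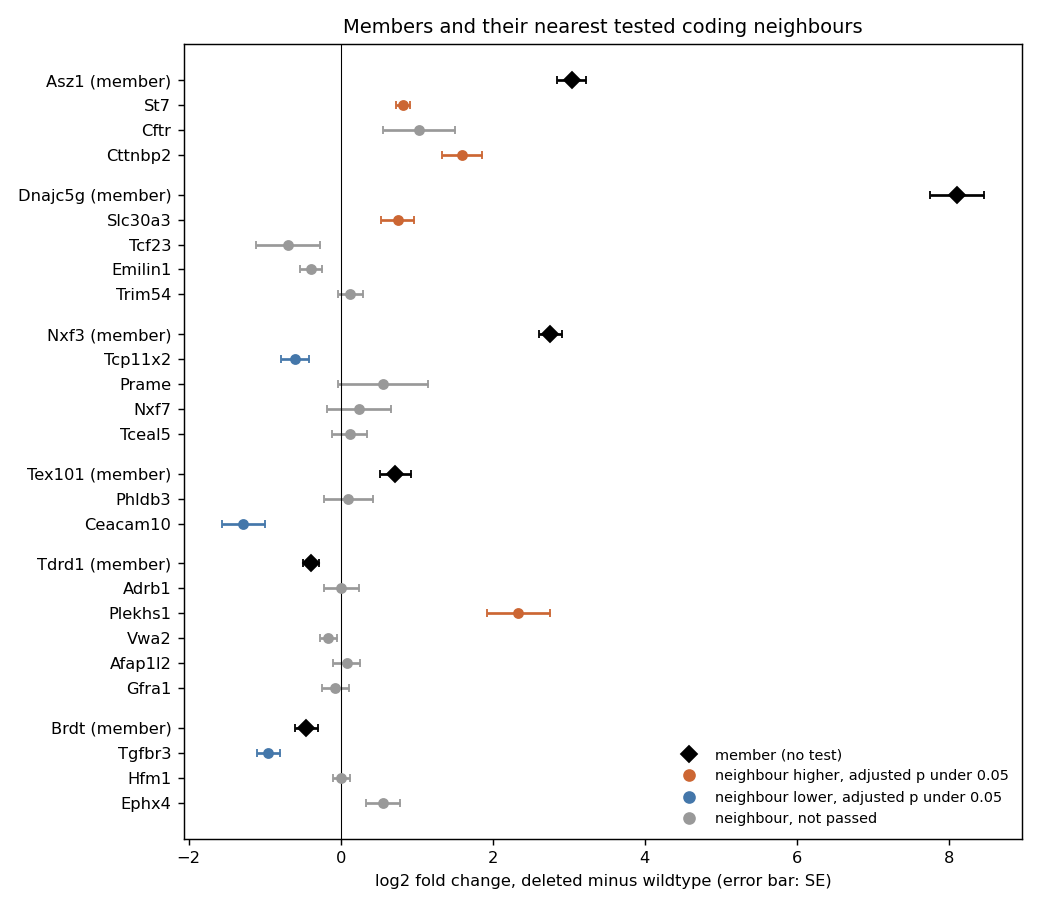
Log2 fold change, deleted minus wildtype, with its SE (x axis) for each member (black diamonds, no test) and its tested neighbours (circles). Circles are coloured by the edgeR call. Neighbours are the nearest coding genes with a row and need not be adjacent. Neighbours of Asz1 all lie above 0 and below Asz1, and the value of Dnajc5g depends on the prior count because wildtype libraries are near 0.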

How the data were processed

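The table that the authors deposited holds raw counts for exon bins in 5 libraries. The submitters' processing notes list STAR and mm9. Annotation and strand setting were not found in the labels. Counts of 243715 bins were summed per gene, leaving 56 spike-in names out. Genes were kept by edgeR's filterByExpr (minimum count 10), scaled by TMM and tested by edgeR's quasi-likelihood F test with Benjamini-Hochberg adjustment over 16259 genes (R 4.3.3, edgeR 4.0.16), on which 39.7% passed 0.05. SE is the absolute log2 fold change divided by the square root of F. Members and lists were chosen with earlier results of these data known, so members get no p. Named are the members, up to 4 genes per list by p, tested neighbours and the 3 genes nearest each member in pattern, of which 1 is not reported here. Alternatives were other scalings, filters, DESeq2 1.42.0, the most counted bin, a replicate block and leaving out each library. The fit was tested on simulated data.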

Additional observations from a re-analysis of the deposited data

How the results depend on the processing

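The sign of each member's value was the same under all alternatives that could be run, though Brdt in its most counted bin lay within 1 SE of 0. The log2 fold change of Dnajc5g, with wildtype near 0, was 8.11, and 8.39 with DESeq2, 7.63 in the most counted bin, 6.24 with a prior count of 2, and 7.77 to 8.53 on leaving out 1 library. With at least 10 counts required in every library it was not tested. In the most counted bin alone the others had 3.30 (Asz1), 3.00 (Nxf3), 0.94 (Tex101), −0.56 (Tdrd1) and −0.19 ± 0.31 (Brdt, SE). On leaving out 1 library, calls over all genes ranged from 3555 to 8347 and over symbols from 613 to 1252. The lowest counts came without deleted 1, which leaves 1 deleted library, taken to have the spread of the wildtype ones. The piRNA list had 1 call, and 0 in the most counted bin, 2 with the replicate block, and 0 to 2 on leaving out 1 library. The meiosis list had 2 calls, 3 with DESeq2, 1 in the most counted bin and 0 to 3 on leaving out 1 library. The methylation list had 2 calls, 1 with at least 10 counts in every library, 3 with DESeq2 or the replicate block, and 2 to 3 on leaving out 1 library. The Tex101 list had 2 calls, 1 in the most counted bin and 0 to 2 on leaving out 1 library. The cysteine string list had 0 calls, and 0 to 1 on leaving out 1 library. With the replicate number as a block, 8200 genes were called in place of 6453. No deleted library has the number 3, so wildtype 3 adds nothing to the group difference in that fit. Without wildtype 3 and with no block, 8347 genes were called. Same-numbered libraries had correlations of 0.187 and −0.176 in their deviations from the group means. With 2 deleted libraries, their deviations mirror each other. These correlations therefore cannot tell whether same-numbered libraries share a culture or batch. The depth limits Dnajc5g in wildtype, where 0 counts allow up to 3.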
